A study of Mus musculus with 2 samples.

Results

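Ceramides are built in the endoplasmic reticulum and stand at the centre of sphingolipid metabolism, and 10 genes for their synthesis, conversion and breakdown are described here in mouse liver. The genes were chosen by symbol for these roles, and all 10 were found among the 24421 genes of the count files. They encode subunits of serine palmitoyltransferase (Sptlc1, Sptlc2), ceramide synthases (Cers2, Cers6), the dihydroceramide desaturase (Degs1), a sphingomyelin synthase (Sgms1), the glucosylceramide synthase (Ugcg), a neutral sphingomyelinase (Smpd3), the acid ceramidase (Asah1) and a sphingosine kinase (Sphk2).

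The first library came from liver of RORα f/f:Alb-Cre mice, labelled LKO for liver-specific knockout. There the albumin promoter drives Cre, which acts in hepatocytes. The second came from RORα f/f control liver, which carries the floxed alleles without Cre. All mice were male C57BL/6 on a high-fat diet (HFD) for 12 weeks from 6 weeks of age, and 500 ng of total RNA entered each library. The title names genes altered by RORα, a nuclear receptor, during progression of non-alcoholic steatohepatitis as the question.

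Each genotype had 1 library, so no difference has a replicate check, no test was made, and each ratio compares these libraries and not the genotypes. Counts summed to 131843686 in the library labelled LKO and 128201591 in the control library. Levels are given as CPM, counts per 1000000 of a library total that was adjusted by TMM (trimmed mean of M-values). Ratios are the library labelled LKO over control, and their 95% exact intervals hold no error but that of counting. Genes that averaged 1 CPM or more and had at least 20 counts in sum were taken as measured, which 11137 were. A gene was called higher or lower past 1.5-fold if the interval also left out 1. Rora itself had 3677 counts in the library labelled LKO and 3701 in the control library, or 24.1 and 33.4 CPM, a ratio of 0.722 (interval 0.690 to 0.756). This log2 ratio of −0.47 rests mostly on the TMM adjustment. With library totals alone as the scale it would be 0.42 higher, and the unadjusted counts were nearly equal. Counts are totals per gene, so reads from exons outside any deleted part would be included, and whether they were was not tested. Directions below are stated for the library labelled LKO and not for loss of RORα. In bulk liver, fewer cells of a type and less RNA per cell cannot be told apart.

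In the de novo route, serine palmitoyltransferase joins serine to palmitoyl-CoA, ceramide synthases add a fatty acyl chain to the sphingoid base, and a desaturase turns dihydroceramide into ceramide. Ceramide is then passed on to sphingomyelin or glucosylceramide, or is cut to sphingosine, which kinases convert to sphingosine 1-phosphate (S1P). In fatty liver, ceramides are studied for their effects on insulin signalling and lipid storage, and the acyl chain chosen by each ceramide synthase is thought to matter.

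Of the 10 genes, 9 were measured. In the library labelled LKO, Cers6, Ugcg and Sphk2 were higher by 1.5-fold or more, 0 were lower by as much, and the other 6 lay within 1.5-fold. Among all measured genes, 10.5% were past 1.5-fold on the higher side and 9.76% on the lower side, 20.3% in all. The median log2 ratio was 0.05 over the 9 genes and 0.00 over all measured genes. Smpd3 did not pass the filter, with a mean under 1 CPM, and stands outside these counts. Ugcg sat on the threshold and Sgms1 just under it, at ratios of 1.5005 and 1.45. With library totals alone as the scale, each log2 ratio would be 0.42 higher, and 34.3% of all measured genes would then be past 1.5-fold on the higher side and 2.59% on the lower, beside 4 and 0 of the 9 genes. Past 2-fold there were 0 of the 9 genes in either direction, where 3.83% of all measured genes were higher and 2.62% lower.

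**Figure D1:**
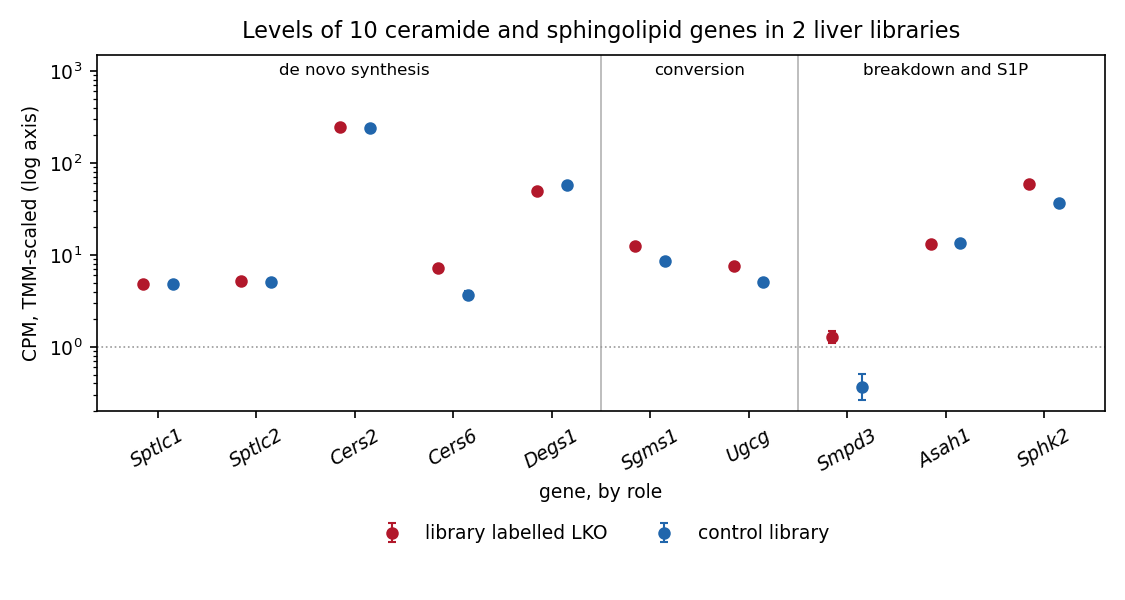
Level of each of the 10 genes in CPM (TMM-scaled, log axis) in the library labelled LKO (red) and the control library (blue), 1 point per library, with exact 95% Poisson intervals of counting error, many smaller than the points. In the library labelled LKO and the control library, Cers2 stood at 247 and 238 CPM, Cers6 at 7.21 and 3.66 CPM, and Smpd3 at 1.28 and 0.370 CPM, around the dotted line at 1 CPM.

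The entry of the pathway was nearly equal between the libraries. Sptlc1, which encodes a subunit of serine palmitoyltransferase without catalytic lysine of its own, had 741 counts (4.86 CPM) in the library labelled LKO and 532 (4.80 CPM) in the control library. Sptlc2, the catalytic partner, had 797 counts (5.23 CPM) in the library labelled LKO and 564 (5.09 CPM) in the control library. The ratios were 1.01 (interval 0.905 to 1.13) and 1.03 (interval 0.921 to 1.15), and both intervals held 1. Of the counts of Sptlc1, Sptlc2 and Sptlc3 together, Sptlc2 took 51.8% (exact interval 49.3 to 54.3) in the library labelled LKO and 51.5% (48.5 to 54.5) in the control library. Sptlc3, an alternative catalytic subunit, had 0 counts in both, which allows up to 0.0197 CPM in the library labelled LKO and 0.0271 CPM in the control library at a floor of 3 counts.

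The ceramide synthases did not share a ratio. Cers2, which makes ceramides with very long acyl chains and is the main ceramide synthase gene of liver, had 37602 counts (247 CPM) in the library labelled LKO and 26332 (238 CPM) in the control library. Its ratio was 1.04 (interval 1.02 to 1.05), an interval that excludes 1 by counting error alone at this depth. Of the exonic bases of Cers2, 2.04% are shared with Setdb1, which had a ratio of 1.17, and 3.92% with 6330562C20Rik. Both lie on the other strand, and strand use in counting is not stated in the labels. Cers6, whose enzyme prefers palmitoyl-CoA and makes ceramides with that shorter chain, had 1100 counts (7.21 CPM) in the library labelled LKO and 406 (3.66 CPM) in the control library. At a ratio of 1.97 (interval 1.76 to 2.21), Cers6 was the highest of the 9 measured genes, and 3.97% of all measured genes had a higher ratio. The gene is annotated as protein coding at chr2:68861441-69114282 on the plus strand (mm10), with 8875 exonic bases, and no exon of another gene overlaps them.

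The balance within the family does not depend on how the libraries are scaled. Cers6 took 2.82% (exact interval 2.66 to 2.99) of the 39003 counts of Cers1 to Cers6 in the library labelled LKO, against 1.504% (1.36 to 1.66) of 26986 in the control library. Cers2 took 96.4% (96.2 to 96.6) in the library labelled LKO and 97.6% (97.4 to 97.8) in the control library. Per length of the longest annotated transcript, the share of Cers6 was 0.908% in the library labelled LKO and 0.480% in the control library, so Cers2 made up nearly all ceramide synthase mRNA in both. Cers5, which also makes palmitoyl ceramides, had 196 and 158 counts in the library labelled LKO and the control library, with a ratio of 0.902 (interval 0.728 to 1.12) that held 1. Cers1, Cers3 and Cers4 were not measured, with 11, 0 and 94 counts in the library labelled LKO and 16, 0 and 74 in the control library.

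Degs1, the desaturase that introduces the double bond of ceramide, was the lowest of the 9 measured genes. It had 7496 counts (49.2 CPM) in the library labelled LKO and 6434 (58.0 CPM) in the control library, a ratio of 0.847 (interval 0.819 to 0.876). This log2 ratio of −0.24 turned to 0.18 with scaling by total count, and 71.6% of all measured genes had a higher ratio than Degs1.

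Both genes that carry ceramide into larger lipids had ratios near 1.5. Sgms1, whose Golgi enzyme moves phosphocholine from phosphatidylcholine to ceramide to give sphingomyelin, had 1913 counts (12.5 CPM) in the library labelled LKO and 961 (8.67 CPM) in the control library. Ugcg, whose enzyme adds glucose and opens the route to gangliosides, had 1160 counts (7.61 CPM) in the library labelled LKO and 562 (5.07 CPM) in the control library. The ratios were 1.45 (interval 1.34 to 1.57) for Sgms1 and 1.5005 (interval 1.36 to 1.66) for Ugcg. Neither interval held 1, while both held 1.5, so the side of the threshold on which either gene lies is within counting error. Ugcg lies at chr4:59189257-59222833 on the plus strand, where no exon of another gene overlaps its own. It was no longer past 1.5-fold with median-of-ratios or upper-quartile scaling or with 5 added counts. The second sphingomyelin synthase gene, Sgms2, had a ratio of 1.32 (interval 1.25 to 1.39). Sgms1 accordingly took similar shares of the counts of both synthase genes, 33.5% (exact interval 32.3 to 34.8) in the library labelled LKO and 31.4% (29.8 to 33.1) in the control library.

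**Figure D2:**
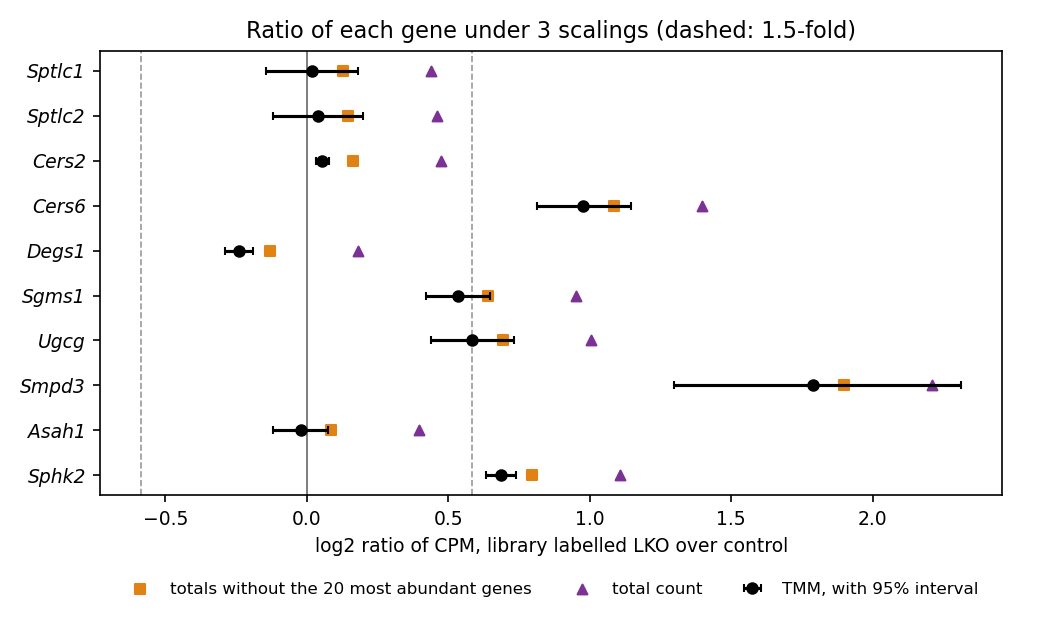
Log2 CPM ratio, library labelled LKO over control, for each of the 10 genes with TMM scaling and 95% counting interval (black), with totals that leave out the 20 most abundant genes (orange squares) and with total counts (purple triangles), and dashed lines at 1.5-fold. Total-count scaling shifts every gene by 0.42, which moves Degs1 and Asah1 across 0, while the other 8 genes lie above 0 under all 3 scalings.

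Among the genes of breakdown, Smpd3 had the highest ratio at the lowest depth. Smpd3, a neutral sphingomyelinase that releases ceramide from sphingomyelin at membranes, had 195 counts in the library labelled LKO and 41 in the control library. Its levels were 1.28 CPM (exact Poisson interval 1.11 to 1.47) in the library labelled LKO and 0.370 CPM (0.265 to 0.502) in the control library. The ratio was 3.46 (interval 2.46 to 4.97). Smpd3 (chr8:106252548-106337988, minus strand) shares 4.72% of its exonic bases with Prmt7, a methyltransferase gene on the other strand with a ratio of 0.754, and whether counting used strand is not stated in the labels. Asah1, the lysosomal ceramidase that yields sphingosine, was nearly equal, with 2005 counts (13.1 CPM) in the library labelled LKO and 1480 (13.4 CPM) in the control library. Its ratio was 0.985 (interval 0.920 to 1.05), and its log2 ratio of −0.02 turned to 0.40 with scaling by total count.

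Sphk2, the sphingosine kinase found in nuclei and mitochondria, had 9098 counts (59.7 CPM) in the library labelled LKO and 4108 (37.1 CPM) in the control library. The ratio was 1.61 (interval 1.55 to 1.67), and 7.91% of all measured genes had a higher one. The gene lies at chr7:45709467-45718002 on the minus strand. Of its exonic bases, 13.0% are shared with Dbp, a clock output gene, and 8.97% with Rpl18, a ribosomal protein gene, both on the other strand. Dbp had a ratio of 1.08 (interval 1.003 to 1.16) and Rpl18 a ratio of 0.695 (interval 0.678 to 0.712). Whether reads in the shared bases were told apart by strand is not stated in the labels, and their part in the Sphk2 counts was not tested. Sphk1, the cytosolic kinase, had 143 counts in the library labelled LKO and 20 in the control library, a ratio of 5.20 (interval 3.24 to 8.77) at a mean under the filter. Sphk1 took 1.55% (exact interval 1.31 to 1.82) of the counts of both kinase genes in the library labelled LKO and 0.484% (0.296 to 0.747) in the control library, so Sphk2 held nearly all of them.

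Levels of different genes were compared as CPM per kb of the longest annotated transcript. In the library labelled LKO the order was Cers2 at 111, Degs1 at 24.0, Sphk2 at 16.8, Asah1 at 4.74, Sgms1 at 3.11, Ugcg at 1.90, Sptlc1 at 1.86, Cers6 at 1.02, Sptlc2 at 0.779 and Smpd3 at 0.248 CPM per kb. In the control library Cers2 stood at 107, Degs1 at 28.3, Sphk2 at 10.4, Asah1 at 4.81, Sgms1 at 2.15, Sptlc1 at 1.84, Ugcg at 1.26, Sptlc2 at 0.758, Cers6 at 0.520 and Smpd3 at 0.0718 CPM per kb. By this length the libraries shared the first 5 places and the last, while Ugcg stood above Sptlc1, and Cers6 above Sptlc2, only in the library labelled LKO. By median transcript length, or divided by the number of curated transcripts, Sptlc2 stood above Cers6 in both libraries. Sphk2 then stood above Asah1 in the library labelled LKO and below it in the control library, and only Cers2, Degs1 and Smpd3 held the first, second and last places in both libraries under all 3 measures. With 1 library per genotype there is no spread over samples by which neighbours in this order could be separated.

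Promoter windows of 250 bases before each RefSeq transcript start (build GRCm38.p6, the assembly of mm10) were found for 8 of the 10 genes, 13 windows in all. They were searched on both strands for AGGTCA, the core of the sites that ROR receptors and many other nuclear receptors bind, and for CACGTG, the E-box bound by USF and by CLOCK and BMAL1. These hexamers were chosen for RORα and for the clock, do not overlap each other, and a match is a description and not a site. AGGTCA stood in 3 windows, 1 of Cers2 and 2 of Sgms1, and in 14.0% of all 32851 windows of this length. None of the windows of Cers6, Ugcg or Sphk2, the genes at least 1.5-fold higher, held these letters. CACGTG stood in 1 window each of Cers2, Cers6 and Degs1, genes with ratios of 1.04, 1.97 and 0.847, and in 6.02% of all windows.

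Among windows that overlap no annotated exon, that of Cers6 and 2 of Sgms1 are printed with that of Sptlc2, a gene with nearly equal levels, in lower case with AGGTCA and CACGTG in capitals. Cers6 lies at chr2:68861191-68861440 on the plus strand, with CACGTG starting 22 bases before the transcript start. Sgms1 has several RefSeq starts. The window of the outermost of these lies at chr19:32388513-32388762 and that of an inner one at chr19:32349317-32349566, both on the minus strand. AGGTCA stands 38 bases before the inner start. The GENCODE gene reaches farther out, to 32389714. A further Sgms1 window without an annotated exon, at chr19:32211014-32211263, holds neither hexamer and is not printed. Sptlc2 lies at chr12:87388356-87388605 on the minus strand and holds neither hexamer.
Cers6: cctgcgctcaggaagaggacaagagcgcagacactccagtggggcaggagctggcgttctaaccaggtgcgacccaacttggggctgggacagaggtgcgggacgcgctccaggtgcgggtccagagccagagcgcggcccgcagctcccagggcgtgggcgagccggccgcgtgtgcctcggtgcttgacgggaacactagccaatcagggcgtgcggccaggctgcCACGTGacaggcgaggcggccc
Sgms1, outermost start: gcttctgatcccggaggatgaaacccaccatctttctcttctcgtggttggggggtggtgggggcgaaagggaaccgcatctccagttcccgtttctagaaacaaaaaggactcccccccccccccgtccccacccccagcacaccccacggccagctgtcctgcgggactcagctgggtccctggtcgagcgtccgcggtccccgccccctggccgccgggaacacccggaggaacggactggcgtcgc
Sgms1, inner start: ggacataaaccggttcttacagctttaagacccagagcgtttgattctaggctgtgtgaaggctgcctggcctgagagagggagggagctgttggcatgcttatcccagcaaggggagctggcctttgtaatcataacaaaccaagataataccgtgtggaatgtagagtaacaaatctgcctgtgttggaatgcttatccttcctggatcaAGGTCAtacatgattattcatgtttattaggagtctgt
Sptlc2: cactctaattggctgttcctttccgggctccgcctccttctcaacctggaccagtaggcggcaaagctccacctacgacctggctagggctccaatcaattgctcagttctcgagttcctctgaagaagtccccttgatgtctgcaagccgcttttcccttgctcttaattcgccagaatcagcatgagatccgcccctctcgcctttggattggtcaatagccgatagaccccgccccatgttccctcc
The windows of Cers6 and of the outermost Sgms1 start have a GC content of 70.4% and 67.2%, against 45.6% at the inner Sgms1 start and 55.2% at Sptlc2. Counts are totals per gene, so they do not say which Sgms1 start was used.

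The other genes of the pathway were described from 4 lists holding 61 genes, of which 43 were measured. Of these, 6 were higher by 1.5-fold or more in the library labelled LKO (14.0%, against 10.5% of all measured genes) and 7 were lower by as much (16.3%, against 9.76%). The 6 include Gal3st1, which met the filter by the library labelled LKO alone. The 7 include S1pr5, which met it by the control library alone, so these shares are not read further. The median log2 ratio was 0.01, close to the 0.00 of all measured genes, with 19 intervals above 1, 16 below 1 and 8 that held 1. With scaling by total count, the numbers past 1.5-fold were 18 higher and 2 lower, beside 34.3% and 2.59% of all measured genes. The 2 lower genes were then S1pr1 and S1pr5.

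**Figure D3:**
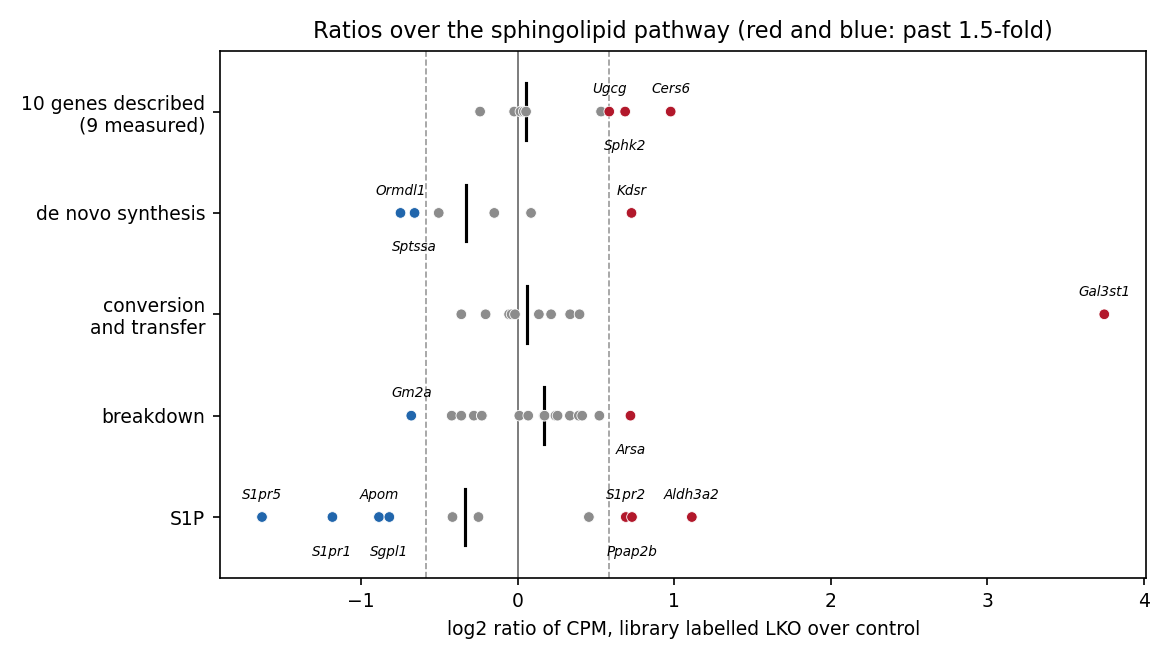
Log2 CPM ratio, library labelled LKO over control, for the measured genes among the 10 described and in the 4 lists of other pathway genes, with a bar at each median, dashed lines at 1.5-fold, and genes at least 1.5-fold higher in red or lower in blue. The S1P list holds the most coloured points, 3 higher and 4 lower, and Gal3st1 lies farthest out at 3.75. Of all measured genes, 10.5% were higher and 9.76% lower past 1.5-fold. Gal3st1 met the filter by the library labelled LKO alone and S1pr5 by the control library alone.

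Around the de novo route, 6 of 13 further genes were measured, with 1 higher and 2 lower and a median log2 ratio of −0.33, or 0.09 with scaling by total count. Of all measured genes, 10.5% were higher and 9.76% lower past 1.5-fold. Kdsr, the reductase that follows serine palmitoyltransferase, stood at 14.0 CPM in the library labelled LKO and 8.47 CPM in the control library, a ratio of 1.66 (interval 1.53 to 1.79). Sptssa, a small subunit that activates serine palmitoyltransferase, stood at 6.45 and 10.2 CPM in the library labelled LKO and the control library, or 1.58-fold lower (interval 1.45 to 1.72). Ormdl1, of the family that inhibits the same enzyme, was 1.68-fold lower (interval 1.49 to 1.89), while Ormdl3, the most abundant gene of this list per kb, had a ratio of 1.06 (interval 1.01 to 1.11). Ormdl2, of the same family, had a ratio of 0.705 (interval 0.661 to 0.752), within 1.5-fold. With TMM, an activator and an inhibitor of the enzyme were thus both lower, beside nearly equal levels of Sptlc1 and Sptlc2. With total counts, the log2 ratios were −0.24 for Sptssa and −0.33 for Ormdl1, both within 1.5-fold. Those of Sptlc1 and Sptlc2 were then 0.44 and 0.46. Sptlc3, Sptssb, Cers3 and Fa2h had 0 counts in both libraries.

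In conversion and transfer, 10 of 13 genes were measured, with 1 higher, 0 lower and a median of 0.06. Gal3st1, the sulfotransferase that makes sulfatide from galactosylceramide, had 610 counts (4.0 CPM) in the library labelled LKO and 33 (0.298 CPM) in the control library. At 13.4-fold higher (interval 9.47 to 19.7) it met the filter by its level in the library labelled LKO alone. Ugt8a, which makes the galactosylceramide it acts on, had 2 counts in the library labelled LKO and 5 in the control library, and was not measured. St3gal5, which adds sialic acid to lactosylceramide and is the most abundant gene of this list per kb, had a ratio of 1.16 (interval 1.14 to 1.18).

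In breakdown, 17 of 20 genes were measured, with 1 higher, 1 lower and a median of 0.17. Each is 5.88% of the list's measured genes, against 10.5% of all measured genes higher and 9.76% lower. Arsa, the lysosomal enzyme that removes sulfate from sulfatide, stood at 25.4 CPM in the library labelled LKO and 15.4 CPM in the control library, a ratio of 1.65 (interval 1.56 to 1.75). Gm2a, an activator protein of ganglioside breakdown, stood at 47.0 and 75.3 CPM in the library labelled LKO and the control library, or 1.60-fold lower (interval 1.55 to 1.65). Psap, the saposin precursor and the most abundant gene of this list per kb, had a ratio of 1.33 (interval 1.32 to 1.34). Enpp7, an intestinal sphingomyelinase gene, had 0 counts in both libraries.

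S1P genes went both ways, with 3 higher and 4 lower of 10 measured genes among 15 and a median log2 ratio of −0.33, or 0.09 with scaling by total count. The 4 lower include S1pr5, which met the filter by the control library alone. Sgpl1, the lyase that ends the pathway by cleaving S1P, stood at 11.7 CPM in the library labelled LKO and 20.7 CPM in the control library, or 1.76-fold lower (interval 1.66 to 1.88). Aldh3a2, which oxidises the fatty aldehyde that this cleavage yields and acts on other fatty aldehydes too, stood at 482 and 223 CPM in the library labelled LKO and the control library, a ratio of 2.16 (interval 2.13 to 2.19). By the mean of both libraries it was the most abundant gene of the list per kb, at 156 CPM per kb in the library labelled LKO and 72.1 in the control library, where Apom stood above it at 138 CPM per kb. The consecutive steps of S1P cleavage and aldehyde oxidation thus had ratios on opposite sides of 1, beside the higher ratio of Sphk2 upstream of them. Ppap2b, a lipid phosphate phosphatase gene now named Plpp3, had a ratio of 1.66 (interval 1.61 to 1.71).

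Carriers and receptors of S1P differed among themselves. Apom, the apolipoprotein that carries S1P in plasma, stood at 75.7 CPM in the library labelled LKO and 140 CPM in the control library, or 1.85-fold lower (interval 1.80 to 1.89). S1pr1, the receptor gene prominent in endothelium and lymphocytes, stood at 14.9 and 33.9 CPM in the library labelled LKO and the control library, or 2.27-fold lower (interval 2.15 to 2.39). S1pr2 had 513 and 231 counts in the library labelled LKO and the control library, a ratio of 1.61 (interval 1.38 to 1.89). S1pr5 had 106 counts in the library labelled LKO and 239 in the control library, was 3.10-fold lower (interval 2.46 to 3.94), and met the filter by its level in the control library alone.

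Markers of liver cell types were read beside these values, and their part in the ratios was not tested. Their counts past 1.5-fold stand beside 10.5% of all measured genes higher and 9.76% lower. With total counts these shares would be 34.3% and 2.59%, and markers were called with TMM alone. Defining hepatocyte markers were abundant in both libraries, with a sum over 10 genes of 115980 CPM in the library labelled LKO and 143380 CPM in the control library, and 0 were higher and 2 lower, with ratios from Tat at 0.447 to Cyp2e1 at 1.45. Stellate cell and fibroblast markers summed to 296 CPM in the library labelled LKO and 205 CPM in the control library, with 6 of 11 higher, 0 lower and ratios from Lrat at 0.884 to Col1a1 at 6.48. Kupffer cell markers summed to 107 and 171 CPM in the library labelled LKO and the control library, with 7 of 9 measured genes of 10 lower, 0 higher and ratios from Timd4 at 0.428 to C1qc at 0.761. The Kupffer sum was thus lower and the stellate sum higher in the library labelled LKO under both scalings, while the ratio of hepatocyte sums was 0.809 with TMM and 1.08 with total counts. Most of the hepatocyte sum was Alb, at 91007 CPM in the library labelled LKO and 117950 CPM in the control library. Most of the stellate sum was Dcn, at 210 and 158 CPM in the same order.

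Endothelial markers, which bear on S1pr1, summed to 255 CPM in the library labelled LKO and 247 CPM in the control library, with 0 of 10 past 1.5-fold and ratios from Fcgr2b at 0.779 to Stab2 at 1.41. Of the lymphocyte list only Ptprc was measured among 7 genes, at a ratio of 0.877, and the sum was 6.99 CPM in the library labelled LKO and 9.24 CPM in the control library. Ptprc alone gave 5.46 and 6.22 CPM of these sums. Under the filter, Cd8a had 12 counts in the library labelled LKO and 74 in the control library, Cd3e 32 and 48, and Cd79b 78 and 123, with intervals below 1. In the same order, Cd79a had 104 and 84 counts, Ms4a1 5 and 5, and Cd3d 3 and 0, with intervals that held 1. Recruited macrophage markers had 2 of 5 measured genes of 8 higher and 0 lower, from Lyz2 at 0.787 to Mmp12 at 6.46, with sums of 19.7 and 19.1 CPM in the library labelled LKO and the control library. Both higher genes, Gpnmb and Mmp12, were under 1 CPM in the control library and met the filter by the library labelled LKO alone, so that count is not read further. Cholangiocyte markers had 0 of 2 measured genes of 6 past 1.5-fold, Spp1 at 0.779 and Sox9 at 0.831, with Cftr at 0 in both and sums of 44.4 CPM in the library labelled LKO and 56.5 CPM in the control library. Of 5 adipocyte genes, Lep and Plin1 were at 0 in both libraries, Adipoq had 4 counts in the library labelled LKO and 0 in the control library, and of the 2 measured genes Cfd had a ratio of 1.80 and Fabp4 of 1.05. The adipocyte sum was 23.0 CPM in the library labelled LKO and 13.4 CPM in the control library, of which Cfd alone gave 21.5 and 12.0 CPM.

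**Figure D4:**
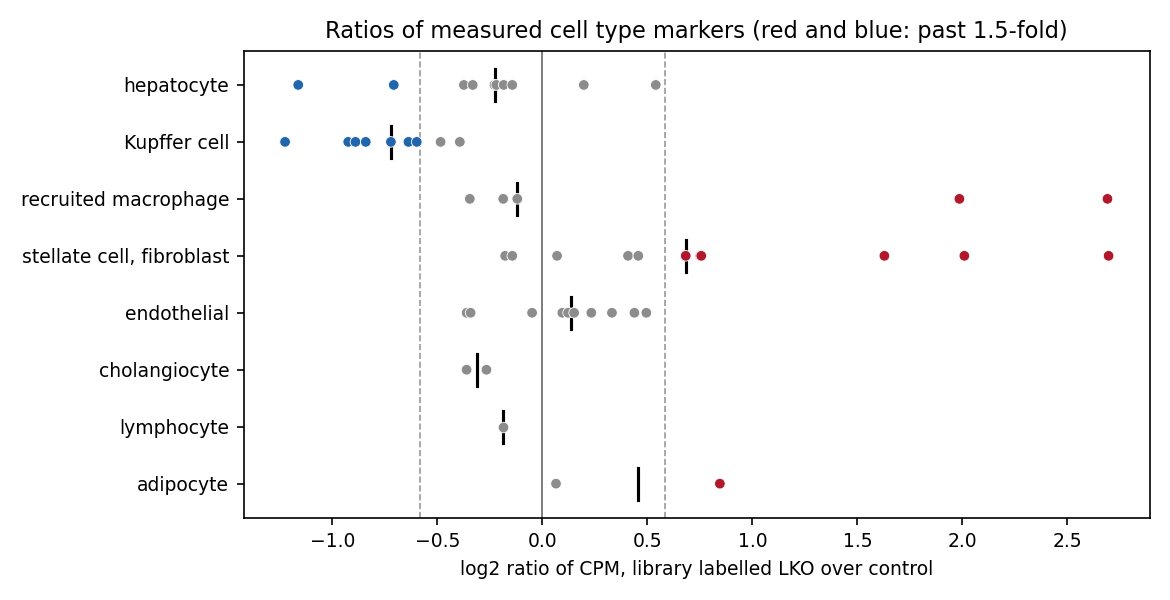
Log2 CPM ratio, library labelled LKO over control, for the measured markers of each cell type, with a bar at each median, dashed lines at 1.5-fold, and genes at least 1.5-fold higher in red or lower in blue. All 9 measured Kupffer cell markers lie below 0, though C1qc would turn positive with scaling by total count, and 6 of 11 stellate cell and fibroblast markers lie past 1.5-fold on the higher side. Of all measured genes, 10.5% lie past 1.5-fold on the higher side and 9.76% on the lower.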

How the data were processed

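Liver RNA of 1 library labelled LKO and 1 control library was measured by RNA-seq with a LEXOGEN mRNA-Seq kit, per the labels' protocols. Whole read counts for each gene symbol were deposited by the authors, without normalization. TopHat, edgeR and build mm10 are named in the submitters' processing notes, without versions or roles. Not given in the sources used here are the counter, its annotation, strand use, the handling of multiply aligned reads, and whether animals were pooled. Reads counted at several transcripts or copies would make intervals too narrow.

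The TMM factors (edgeR 4.0.16, R 4.3.3) were 1.16 in the library labelled LKO and 0.865 in the control library. Ratios have Clopper-Pearson intervals conditional on the summed count, and shares have exact binomial intervals, all at 95% (scipy 1.17.1). No p-value was computed. As reads carry no molecular identifiers and can be copies of 1 molecule, intervals and floors hold counting error and nothing else. The procedure was tested on simulated counts that held counting error alone, so that test does not bear on spread between animals or libraries. Positions, transcript lengths and exons are from GENCODE M21 and promoters from RefSeq.

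The genes and lists were chosen with earlier results of these data known. Pathway genes were named if at least 1.5-fold higher or lower or most abundant per kb in their list, and markers if lowest, highest or at 0. Ugt8a, Sgms2, Sphk1, Cers1, Cers3, Cers4, Cers5, Sptlc3, Sptssb, Fa2h, Enpp7, Adipoq, Gpnmb, Dbp, Rpl18 and Prmt7 lie outside that rule and were named after their values were seen. The same holds for Setdb1, 6330562C20Rik, Ormdl2, Alb, Dcn, Cd8a, Cd3d, Cd3e, Cd79a, Cd79b and Ms4a1. A further marker gene was left out and is not reported here. Alternatives were other scalings (including DESeq2 1.42.0), filters, thresholds, added counts and transcript lengths.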

Additional observations from a re-analysis of the deposited data

How the results depend on the processing

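Total-count scaling raised every log2 ratio by 0.42 and totals without the 20 most abundant genes by 0.11. The median log2 ratio over the measured genes of the 10 was then 0.47 and 0.16, and it was 0.040 with upper-quartile scaling and 0.29 with no filter, which adds Smpd3. Asah1 turned positive under both of the first scalings and Degs1 with total counts only. The genes at least 1.5-fold higher numbered 4 of 9 under both, beside 34.3% and 14.6% of all measured genes, 2 of 9 with median-of-ratios or upper-quartile scaling or with 5 added counts (1166, 1119 and 1128 of all 11137 measured genes), 1 of 5 at a mean of at least 10 CPM (8.01%), and 0 at 2-fold (3.83%). The number at least 1.5-fold lower was 0 under every alternative tried. Other pathway genes called higher numbered 18 of 43 with total counts, 10 of 56 with no filter and 2 of 43 at 2-fold. Of all genes tested in the same way, 34.3%, 13.5% and 3.83% were higher. Those lower numbered 2 of 43 with total counts, 4 of 28 at a mean of at least 10 CPM and 2 of 43 at 2-fold. Of all genes tested in the same way, 2.59%, 9.03% and 2.62% were lower. The 2-fold counts include Gal3st1 and S1pr5, which each met the filter by 1 library alone. By median transcript length, 4 of the 10 genes changed place in the order of levels in the library labelled LKO. With levels divided by the number of curated RefSeq transcripts, an alternative chosen after seeing the data, 5 did, but Cers2, Degs1, Sphk2 and Asah1 kept the first 4 places and Smpd3 the last in that library. Among 23 single-gene ratios, total counts moved 21 and totals without the most abundant genes moved 11 beyond their counting intervals, and median-of-ratios, upper-quartile scaling and 5 added counts moved 0. No replicate could be left out with 1 library per genotype. No paired analysis was possible because the labels give no replicate numbers and each genotype has 1 library. Among the 10 genes, Smpd3 had the fewest counts, 41 in the control library. Outside them, the genes given with a ratio that had fewer counts there were Mmp12, Gal3st1 and Sphk1, with 35, 33 and 20.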
